A study of Mus musculus with 137 samples.

Results

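The nuclear-encoded genes of oxidative phosphorylation were followed in single 2-cell mouse embryos. Members were all gene symbols that begin with Nduf, Uqcr, Cox4 to Cox8 or Atp5, together with Sdha to Sdhd, and symbols ending in -ps were left out. The rule found 97 members among 36043 genes: 49 of complex I, 4 of complex II, 8 of complex III, 19 of complex IV and 17 of complex V. Of the complex I symbols, 8 (Ndufaf) are assembly factors and not subunits. GENCODE M21 lists Ndufa11b, Ndufb4c and Ndufs6b of complex I and Cox6c2 of complex IV as processed pseudogenes. The rule uses symbols and no measured value, and 89 of the 97 had enough counts to be tested.

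B6129F1 zygotes were taken at 5 hours post fertilization, and culture was in KSOM medium with no oil overlay. From 6 hours, 29 embryos received 0.1% DMSO, the solvent, and 41 received SR1848 at 10 µM, which inhibits NR5A2, an orphan nuclear receptor. A further 67 embryos, labelled SR1848_NR5A2OE and called injected embryos below, carried 500 ng/µl NR5A2 mRNA in addition to SR1848. The labels give no group injected with another mRNA, so injection and NR5A2 cannot be told apart in that comparison. Each library was made from 1 embryo by the Smart-seq2 protocol with oligo-dT priming, and 2 experiments were run (19, 17 and 27 embryos in the first, and 10, 24 and 40 in the second). An embryo is a bulk sample of its blastomeres, so fewer blastomeres and less RNA per blastomere cannot be told apart. Whether embryos shared parents is not recorded, and p-values measure the spread between embryos.

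Some libraries went against their labels. In experiment 2, the libraries labelled DMSO 1 to 8 held 47.4 to 7075 CPM (counts scaled to a common library total) of GFP, a sequence present in the count table, and those labelled SR1848_NR5A2OE 1 to 8 held at most 0.452 CPM. These 16 libraries, and 7 with few counts or few genes, were set aside, which left 18 DMSO, 40 SR1848 and 56 injected embryos. Results with all libraries as labelled are given beside them. Depth among the libraries kept ran from 3383462 to 9317721 counts per embryo. Nr5a2 mRNA had a median of 111 CPM in the DMSO embryos, 13.2 CPM in the SR1848 embryos and 3093 CPM in the injected embryos. Of the 56 injected embryos, 14 held less than 100 CPM of GFP, with 5.37 to 97.0 CPM of Nr5a2. One library, labelled SR1848_NR5A2OE 2 of experiment 1, had a count for only 29 of the 97 members against 77 or more in the other injected embryos.

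Oxidative phosphorylation takes place in the inner mitochondrial membrane. Complex I accepts electrons from NADH and complex II from succinate, and both hand them to ubiquinone. Complex III passes them on to cytochrome c, complex IV to oxygen, and the proton gradient that results drives the ATP synthase, complex V. Most subunits are encoded in the nucleus and a few in mitochondrial DNA, except for complex II, which is encoded in the nucleus alone. The oocyte supplies the early embryo with both mitochondria and mRNAs, and transcripts of the embryo's own genome add to them at the 2-cell stage.

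Members gave a smaller part of the embryo's mRNA after SR1848, with complex V showing the largest drop in median share in percentage points. On the log2 scale the members of complex III fell most, with a median change of -2.39 against -2.03 for complex V. Their summed share of counts was 0.441% to 0.758% in the DMSO embryos (median 0.544%, n = 18), 0.222% to 0.452% in the SR1848 embryos (median 0.321%, n = 40) and 0.115% to 0.524% in the injected embryos (median 0.291%, n = 56). All 40 SR1848 embryos lay below the DMSO median, and 39 lay below the lowest DMSO embryo. Within experiment 1 the medians were 0.544%, 0.327% and 0.326%, and within experiment 2, where only 2 DMSO embryos remained, they were 0.556%, 0.316% and 0.268%. Among the libraries set aside, those labelled DMSO 1 to 8 had a median share of 0.262% and those labelled SR1848_NR5A2OE 1 to 8 a median of 0.522%. With all libraries the medians were 0.477%, 0.317% and 0.310%.

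The complexes did not move alike. Complex III took 0.0326% to 0.0599% of counts in the DMSO embryos (median 0.0412%) and 0.00298% to 0.0133% in the SR1848 embryos (median 0.00652%), with no overlap. The share of complex V was 0.178% to 0.318% with DMSO (median 0.223%) and 0.0567% to 0.139% with SR1848 (median 0.0862%), again with no overlap. Complexes I and IV fell less in their medians, from 0.129% to 0.0958% and from 0.140% to 0.110%, and their ranges overlapped. These sums weigh abundant members most, and some of those rose. They included Ndufa4 and the assembly factor Ndufaf4 in complex I, and Cox8a and Cox6b2 in complex IV. Ndufa4 is summed here by its symbol, though it is now counted as a subunit of complex IV. Of the members tested, 32 of 45 fell in complex I and 10 of 15 in complex IV (edgeR adjusted p under 0.05). Of all 15099 genes tested, 39.0% fell. Complex II went the other way: its share was 0.0107% in the median DMSO embryo and 0.0199% in the median SR1848 embryo, and 33 of 40 SR1848 embryos lay above the highest DMSO embryo. In the injected embryos the complex II median was 0.00960%, and 54 of 56 lay below the SR1848 median. These shares are descriptions, and they were given no test.

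**Figure D1:**
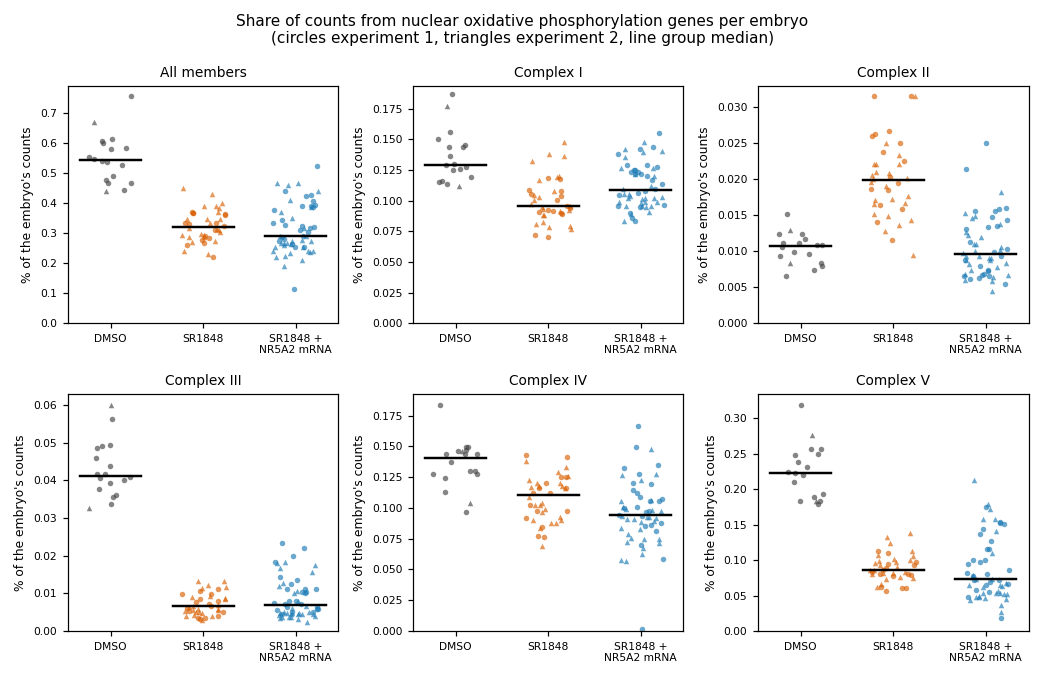
Share of each embryo's counts (percent, y axis) from all 97 members and from the members of each complex, by group (x axis); each point is 1 embryo, circles are experiment 1, triangles experiment 2, and lines are group medians. Complexes III and V separate DMSO from SR1848 with no overlap, whereas complex II is higher with SR1848 (median 0.0199%) than with DMSO (median 0.0107%).

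Promoters of the members were examined for letters that known regulators of mitochondrial genes bind. These were NRF1 (GCGC and GCGC with any 2 bases between them), ETS factors such as GABPA (CCGGAAG) and YY1 (AAGATGGC). Letters of NR5A2 itself were also searched: TCAAGGTCA, and its core AAGGTCA, which lies inside it. Estrogen-related receptors bind both of these as well. Windows ran from 250 bases before to 50 bases after each start in RefSeq (GRCm38.p6), both strands were searched, and 76 of the 97 members had a window. NRF1 letters stood in 27.6% of the members and in 7.00% of all 27025 genes with a window, ETS letters in 25.0% against 9.93%, and YY1 letters in 14.5% against 3.19%. Among the genes that were tested these shares were higher, at 13.7%, 18.1% and 4.73%. The NR5A2 core stood in 8 members (10.5%, against 5.38% of all genes and 4.15% of those tested): Atp5e, Atp5g3, Atp5k, Atp5l, Ndufb2, Ndufb4, Ndufs5 and Sdhd. Only Atp5g3 and Sdhd had the longer sequence (2.63% of the members, against 0.466% of all genes and 0.358% of those tested). A match is a description of the letters and not a bound site. Among members that fell with SR1848, 11.3% of 53 windows held the core, and among members that rose none of 9 did; for all genes tested those shares were 4.13% of 4408 and 4.33% of 4225.

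The following stretches are the 250 bases before the start, read along the gene's strand. They belong to 2 members that fell and 2 that rose with SR1848, chosen after their values were seen. Atp5g3 also rose with NR5A2 mRNA, whereas Sdhd, with the same longer sequence, fell with SR1848 and did not pass with the mRNA. Whether NR5A2 acts through these letters was not tested. Capitals mark the NR5A2 sequence in Atp5g3 (on the opposite strand), NRF1 sequences in Ndufaf4 and Sdha, and an ETS sequence in Ndufaf1. They lie on GRCm38.p6 at chr2:73911327-73911576 (minus strand, Atp5g3), chr2:119662835-119663084 (minus, Ndufaf1), chr13:74350241-74350490 (minus, Sdha) and chr4:24897833-24898082 (plus, Ndufaf4).
Atp5g3: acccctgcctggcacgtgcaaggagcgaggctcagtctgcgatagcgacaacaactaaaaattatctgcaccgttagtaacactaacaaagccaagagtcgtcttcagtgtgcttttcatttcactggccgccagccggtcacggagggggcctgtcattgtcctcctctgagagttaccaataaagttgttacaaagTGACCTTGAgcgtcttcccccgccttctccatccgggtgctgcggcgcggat
Ndufaf1: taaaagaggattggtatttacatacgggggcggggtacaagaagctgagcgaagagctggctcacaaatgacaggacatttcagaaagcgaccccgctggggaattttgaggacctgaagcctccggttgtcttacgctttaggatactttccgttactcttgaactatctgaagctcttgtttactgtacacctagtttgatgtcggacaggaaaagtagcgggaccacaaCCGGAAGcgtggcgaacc
Sdha: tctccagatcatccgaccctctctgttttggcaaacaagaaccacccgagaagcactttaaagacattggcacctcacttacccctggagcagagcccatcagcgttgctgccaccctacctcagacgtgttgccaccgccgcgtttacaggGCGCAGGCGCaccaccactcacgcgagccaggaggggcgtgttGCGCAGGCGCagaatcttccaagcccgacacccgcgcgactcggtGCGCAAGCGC
Ndufaf4: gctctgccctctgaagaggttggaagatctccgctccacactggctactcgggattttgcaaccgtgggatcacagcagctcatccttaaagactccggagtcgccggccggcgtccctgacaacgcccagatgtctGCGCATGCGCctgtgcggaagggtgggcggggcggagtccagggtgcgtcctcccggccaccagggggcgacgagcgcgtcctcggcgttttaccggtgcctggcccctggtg

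Subunits of complex III, which moves electrons from ubiquinol to cytochrome c, fell in 7 of 8 cases with SR1848. Across all 15099 genes tested, 39.0% fell and 37.7% rose (edgeR quasi-likelihood test, Benjamini-Hochberg adjusted p under 0.05), with a median log2 change of -0.02. Of the 89 members tested, 65 fell and 11 rose, with a median of -1.39. None of the complex III members rose, and their median was -2.39. Levels of members are given in CPM scaled by trimmed-mean (TMM) factors, and shares are of unscaled counts. Uqcrfs1, the Rieske iron-sulfur subunit (chr13:30540308-30545362 by GENCODE M21), lay at 81.9 to 244 CPM in the DMSO embryos (median 123) and at 0 to 32.3 CPM in the SR1848 embryos (median 2.64). No SR1848 embryo reached the lowest DMSO embryo, and the log2 change was -4.95 (SE 0.50, edgeR adjusted p 1.83e-16). Uqcrc1, a core subunit that faces the matrix, had 18.1 to 68.2 CPM with DMSO (median 37.9) and 0 to 14.4 CPM with SR1848 (median 1.38; log2 change -4.28, SE 0.48, edgeR adjusted p 6.50e-14). Uqcrb, which binds near the ubiquinone site, went from 8.53 to 56.6 CPM (median 33.3) to 0 to 12.7 CPM (median 1.06; log2 change -4.28, SE 0.42, edgeR adjusted p 8.39e-17). Uqcrc2, the other core subunit, fell less, by 1.74 on the log2 scale. Uqcr11 did not pass the test (log2 change -0.28, edgeR adjusted p 0.577).

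The ATP synthase fell in 14 of its 17 members and rose in none (39.0% and 37.7% of all genes), with a median of -2.03. Atp5a1 and Atp5b form the catalytic ring and did not move by the same amount. Atp5a1 had 129 to 307 CPM with DMSO (median 178) and 16.5 to 72.5 CPM with SR1848 (median 33.4), a log2 change of -2.38 (SE 0.24, edgeR adjusted p 7.84e-16) with no overlap. Atp5b had 514 to 961 CPM with DMSO (median 679) and 313 to 894 CPM with SR1848 (median 519), and its log2 change of -0.33 (SE 0.16, edgeR adjusted p 0.05) did not pass. In the central stalk, Atp5c1 fell by 1.43 and Atp5d by 3.94 on the log2 scale. Atp5pb of the peripheral stalk fell by 1.77.

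Subunit c, the rotating ring of the membrane part, is encoded by Atp5g1, Atp5g2 and Atp5g3, which yield the same mature protein. Atp5g1 (chr11:96068852-96075670) had 192 to 438 CPM with DMSO (median 310) and 40.6 to 169 CPM with SR1848 (median 62.3), with no overlap and a log2 change of -2.11 (SE 0.26, edgeR adjusted p 1.70e-12). Atp5g3 had 22.9 to 88 CPM (median 54.2) and 1.00 to 30.8 CPM (median 5.43), and 39 of 40 SR1848 embryos lay below the lowest DMSO embryo (log2 change -2.70, SE 0.34, edgeR adjusted p 6.38e-12). Atp5g2 was scarce, at 0 to 8.89 CPM with DMSO and 0 to 16.9 CPM with SR1848, and its change did not pass (log2 change 0.83, edgeR adjusted p 0.104). Per length of transcript, the median DMSO embryo held 471 CPM per kilobase of Atp5g1, second among the 97 members, and the median SR1848 embryo 84.2, ninth among them.

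**Figure D2:**
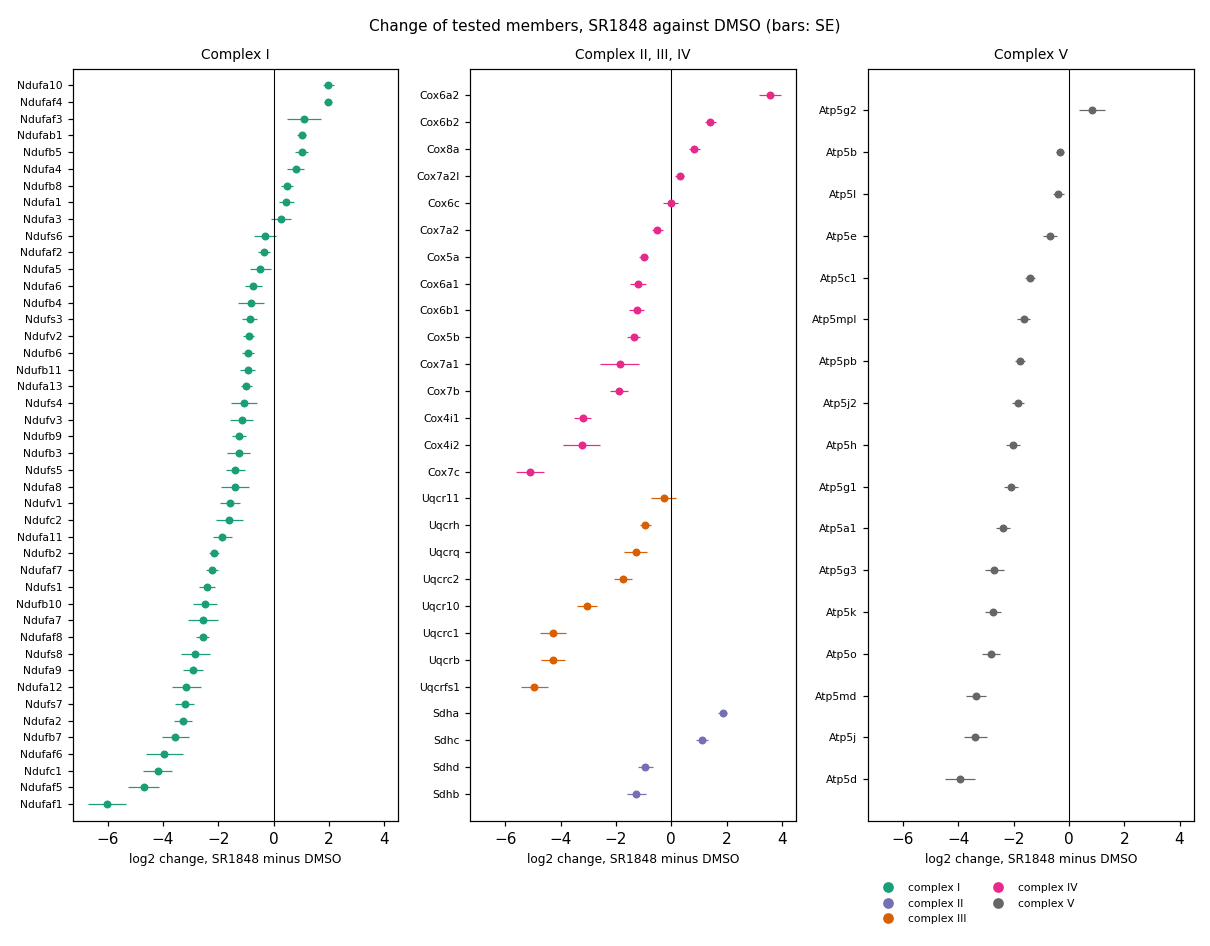
Fitted log2 change of tested members (x axis; bars are SE), SR1848 against DMSO, in 3 panels by complex; 1 complex I member is not drawn. Most members lie left of 0, and the members farthest to the right are Cox6a2 at 3.57, Ndufa10 and Ndufaf4, both at 1.97, and Sdha at 1.85.

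Complex I, the NADH dehydrogenase, fell in 32 of 45 tested members and rose in 6 (39.0% and 37.7% of all genes), with a median of -1.27. Of its catalytic core subunits, Ndufs3 fell by 0.86, Ndufs8 by 2.84 and Ndufs7 by 3.21 on the log2 scale. Ndufs7, next to the ubiquinone site, had 9.51 to 34.4 CPM with DMSO (median 20.6) and 0 to 8.86 CPM with SR1848 (median 1.83), with no overlap. Ndufb2, an accessory subunit of the membrane arm, had the lowest adjusted p among complex I members that fell: 21.1 to 76.0 CPM with DMSO against 2.33 to 17.1 CPM with SR1848 (log2 change -2.16, SE 0.20, edgeR adjusted p 7.36e-19). Ndufa2, a small accessory subunit, fell by 3.26.

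Assembly factors moved in both directions. Of the 8, 5 fell, 1 rose and 2 did not pass, where 39.0% of all genes fell and 37.7% rose. Ndufaf1, which chaperones an early membrane intermediate, had 18.6 to 82.5 CPM with DMSO (median 33.2) and 0 to 6.34 CPM with SR1848, where 30 of 40 embryos were at 0 (log2 change -6.04, SE 0.69, edgeR adjusted p 1.03e-13). Ndufaf5, which modifies Ndufs7, had 18.2 to 57.5 CPM and 0 to 9.34 CPM (log2 change -4.70). Ndufaf7, a methyltransferase of complex I assembly, fell by 2.24. Ndufaf4 (chr4:24898083-24905001) went the opposite way: it had 40.5 to 138 CPM with DMSO (median 74.0), 231 to 466 CPM with SR1848 (median 312) and 88.8 to 802 CPM in the injected embryos (median 416). Every SR1848 embryo lay above the highest DMSO embryo (log2 change 1.97, SE 0.14, edgeR adjusted p 9.85e-25), as did 55 of the 56 injected embryos.

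Among the other members that rose, Ndufa10, an accessory subunit, went from 7.70 to 69.3 CPM (median 22.6) to 54.8 to 192 CPM (median 84.4, log2 change 1.97, SE 0.20, edgeR adjusted p 1.16e-16). Ndufab1, the mitochondrial acyl carrier protein, went from 26.6 to 76.8 CPM (median 49.6) to 77.1 to 152 CPM (median 109), with no overlap (log2 change 1.02). Ndufb5, a membrane-arm subunit, rose by 1.01, and Ndufb8, another, rose by 0.47 and stood at -0.07 with relative log expression factors. Ndufa4, which is now counted as a subunit of complex IV, rose by 0.80 (edgeR adjusted p 0.013), with overlapping ranges.

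Complex II, succinate dehydrogenase, split between its subunits. Sdha, the flavoprotein that oxidizes succinate (chr13:74322254-74350280), had 31.1 to 71.6 CPM with DMSO (median 47.1) and 65.8 to 252 CPM with SR1848 (median 154; log2 change 1.85, SE 0.18, edgeR adjusted p 1.33e-17). In the injected embryos it had 26.1 to 209 CPM (median 69.1), and 53 of 56 lay below the SR1848 median (log2 change against SR1848 -1.01, SE 0.11, edgeR adjusted p 2.32e-13). Sdhc, a membrane anchor, followed with medians of 11.5, 24.8 and 14.0 CPM (log2 changes 1.12 with SR1848 and -0.77 with the mRNA). The iron-sulfur subunit Sdhb and the other anchor, Sdhd, fell with SR1848 by 1.26 and 0.94, and neither passed the test between injected and SR1848 embryos. One complex thus held 2 subunits that rose and 2 that fell.

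Complex IV, cytochrome c oxidase, fell in 10 of 15 tested members and rose in 3 (39.0% and 37.7% of all genes), with a median of -1.21. Several of its subunits come in tissue-restricted versions. Cox4i1, the general form of subunit 4 (chr8:120668222-120674207), had 127 to 326 CPM with DMSO (median 185) and 3.88 to 60.4 CPM with SR1848 (median 15.7), with no overlap (log2 change -3.20, SE 0.30, edgeR adjusted p 5.57e-18). Its hypoxia-responsive counterpart Cox4i2 was scarce (median 3.20 CPM with DMSO and 0.0899 CPM with SR1848) and fell by 3.24. Cox7c, a small subunit, had 12.6 to 50.7 CPM with DMSO and 0 to 6.97 CPM with SR1848 (log2 change -5.11, SE 0.51, edgeR adjusted p 1.40e-16).

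Subunits 6a and 6b had a general form that fell and a restricted form that rose. Cox6a1 fell by 1.21 (medians 97.8 and 39.6 CPM), whereas its muscle counterpart Cox6a2 rose from 0 to 1.22 CPM (median 0.489) to 1.39 to 12.8 CPM (median 5.63), with no overlap (log2 change 3.57, SE 0.39, edgeR adjusted p 1.85e-14). Cox6b1 fell by 1.25 (medians 68.5 and 23.6 CPM), whereas its testis counterpart Cox6b2 rose from 30.5 to 123 CPM (median 72.0) to 87.3 to 447 CPM (median 180; log2 change 1.41, SE 0.20, edgeR adjusted p 4.34e-10). Per length of transcript, Cox6b2 stood at 145 CPM per kilobase in the median DMSO embryo, 11th of the 97, and at 362 in the median SR1848 embryo, second only to Cox8a. In the pair of Cox7a1 and Cox7a2 both fell, by 1.86 and 0.51. Cox7b fell by 1.88, and Cox7b2 had too few counts to test. Cox8a, highest of the 97 members per kilobase in all 3 groups, rose by 0.84 (171 to 456 CPM with DMSO, 343 to 716 CPM with SR1848, edgeR adjusted p 2.76e-05), and its counterparts Cox8b and Cox8c were too scarce to test.

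**Figure D3:**
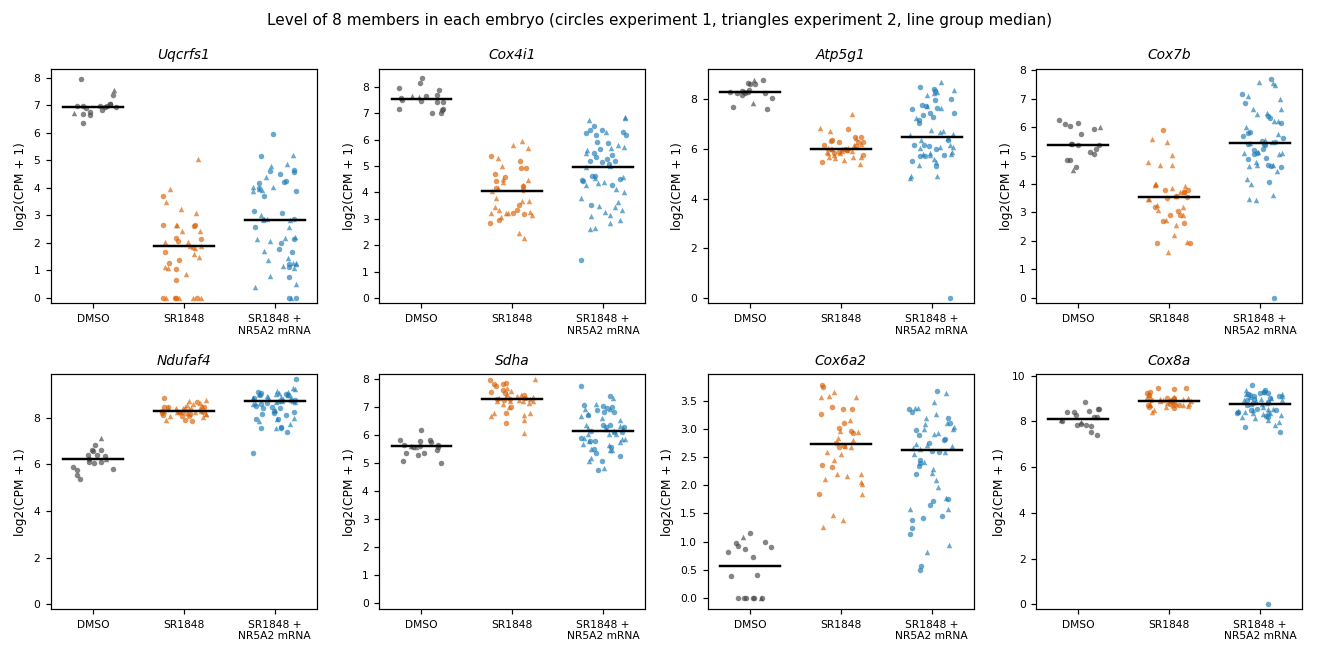
Levels of 8 members, log2(CPM + 1) on the y axis, by group on the x axis; each point is 1 embryo, circles are experiment 1, triangles experiment 2, and lines are group medians. Uqcrfs1, Cox4i1 and Atp5g1 fall with SR1848 with no overlap with DMSO, Ndufaf4 and Cox6a2 rise with no overlap, Sdha and Cox7b move back in the injected embryos, and 1 injected embryo (library 2 of experiment 1) stands at 0 for Cox7b, Atp5g1 and Cox8a.

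The 8 members without a test were Cox6c2, Cox7b2, Cox8b, Cox8c, Ndufa11b, Ndufa4l2, Ndufb4c and Ndufs6b. The highest value of any of them in any embryo kept was 6.69 CPM (Cox8c in an injected embryo). Cox6c2 was at 0 in all of them. Cox7b2 and Ndufs6b had medians of 1.02 and 1.85 CPM with DMSO, and 40 and 38 of the 40 SR1848 embryos were at 0. Where a member has near-identical copies in the genome, among them the 14 symbols ending in -ps, kallisto divides reads between them, so such levels are uncertain. Strand was not stated for the counting, so reads of overlapping antisense genes cannot be told apart.

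Scaling matters for the members that rose. The counts above use the TMM factors, under which the median gene moved by -0.02 on the log2 scale. With relative log expression factors the median gene moved by -0.55, and 7 members rose and 72 fell (4350 and 7093 of all 15099 genes). With factors taken from a list of maternal mRNAs it moved by -1.97, and 1 member (Cox6a2) rose and 84 fell (1151 and 10654 of all 15099 genes). Under the maternal factors Sdha, Sdhc, Ndufab1, Cox6b2, Cox8a, Ndufa4 and Ndufb8 had negative changes, and Ndufaf4 stood at -0.01. Summed counts of that maternal list differed between the groups: 11800 to 23900 CPM with DMSO, 44200 to 88400 CPM with SR1848 and 28300 to 97200 CPM in the injected embryos. Its part in the members' changes was not tested. With all libraries as labelled, 55 members fell and 14 rose of 88 tested (36.0% and 33.1% of all genes).

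Summed counts of marker lists varied with the groups as well, and single genes of a list went both ways. With SR1848 against DMSO, 3 rose and 2 fell of 7 cumulus genes tested, and 3 and 2 of 5 spermatid genes. Of 5 blood and epithelial genes tested 3 rose and 1 fell, and of 8 genes of 2-cell embryos 3 rose and 2 fell. Across all genes 37.7% rose and 39.0% fell. A list of 13 cumulus genes took 0.00413% to 0.0150% of counts with DMSO, 0.000188% to 0.00539% with SR1848 and 0.000423% to 0.00630% in the injected embryos, with Ptx3, Fshr and Foxl2 at 0 in every DMSO embryo. A list of 10 spermatid genes summed to 91.4 to 266, 367 to 1050 and 164 to 978 CPM, with Tnp1 at 0 in every DMSO and SR1848 embryo. A list of 8 blood and epithelial genes summed to 89.9 to 289, 21.2 to 220 and 8.82 to 731 CPM, with Hbb-bs at 0 in all 3 groups. A list of 8 genes of 2-cell embryos summed to 117 to 459, 27.3 to 1300 and 2.28 to 2900 CPM. Their part in the members' changes was not tested.

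Between injected and SR1848 embryos, single members moved in both directions, and the list as a whole stayed close to the background. Of 89 members, 29 rose and 11 fell (29.8% and 14.8% of all genes), with a median log2 change of 0.11 for the members and 0.12 for all genes. By complex, 12 rose and 1 fell in complex I, 0 and 2 in complex II, 5 and 1 in complex III, 5 and 3 in complex IV, and 7 and 4 in complex V. These counts use all 56 injected embryos, and those for the 42 with at least 100 CPM of GFP, given below, differ. Relative log expression factors gave 32 and 6 (5263 and 1621 of all 15099 genes), with the median gene at 0.24. Maternal factors gave 45 and 5 (7454 and 753 of all 15099 genes), with the median gene at 0.50. With all libraries as labelled, 39 rose and 6 fell (29.6% and 13.0% of all genes). Without library 2 of experiment 1 the counts were 30 and 12 (4602 and 2403 of all 15092 genes).

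Cox7b, a small complex IV subunit encoded on the X chromosome (chrX:106015700-106022450), had the largest fitted rise among members. It lay at 21.7 to 74.8 CPM with DMSO (median 40.7), 2.07 to 59.1 CPM with SR1848 (median 10.6) and 0 to 204 CPM in the injected embryos (median 41.9). Of the 56 injected embryos, 53 lay above the SR1848 median (log2 change 2.13, SE 0.24, edgeR adjusted p 1.49e-12), and injected and DMSO embryos did not differ by the test (log2 change 0.24, SE 0.31, edgeR adjusted p 0.477). Atp5g3 rose by 1.79 (SE 0.25, edgeR adjusted p 3.51e-09) to a median of 20.7 CPM and stayed below DMSO (log2 change -0.91, edgeR adjusted p 0.00606). Its relative Atp5g1 rose by 0.93 to a median of 89.0 CPM, and Atp5g2 fell by 1.25.

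In complex III, Uqcrb rose by 1.82 and Uqcrfs1 by 1.31, yet their medians of 4.74 and 6.08 CPM were far below the 33.3 and 123 CPM of DMSO. In complex I, Ndufc1, a membrane-arm subunit, rose by 1.99 to a median of 3.39 CPM against 21.7 CPM with DMSO, and Ndufa2 rose by 1.44 to 14.3 CPM against 77.2 CPM. Ndufb11, another membrane-arm subunit encoded on the X chromosome, rose by 0.93 to a median of 47.8 CPM, next to 54.6 CPM with DMSO, and Ndufv3, an accessory subunit of the NADH-binding module, rose by 1.29. Cox5a, a subunit on the matrix side of complex IV, was lower again in the injected embryos: 84.5 to 216 CPM with DMSO (median 156), 36.1 to 109 CPM with SR1848 (median 72.5) and 6.54 to 113 CPM in the injected embryos (median 36.3; log2 change against SR1848 -0.90, SE 0.12, edgeR adjusted p 4.73e-10). Cox6b1 also fell in both steps, by 1.25 and 1.08.

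Injected embryos with much and with little GFP were also looked at apart. The 42 injected embryos with at least 100 CPM of GFP gave complex V a median share of 0.0651% and complex III one of 0.00539%. The 14 with less GFP, and with Nr5a2 at 97.0 CPM or less, had medians of 0.151% and 0.0150%, nearer to DMSO. The other complexes differed less: the medians of the 42 and the 14 were 0.104% and 0.122% for complex I, 0.00938% and 0.0107% for complex II, and 0.0921% and 0.114% for complex IV. For single members, the medians of Cox4i1 were 21.5 and 76.0 CPM in these 2 sets, those of Atp5g1 68.4 and 233 CPM, and those of Uqcrfs1 3.43 and 18.9 CPM. When only the 42 were set against SR1848, 17 members rose and 18 fell of 88 tested (24.4% and 18.1% of all genes), with a median of -0.09. By complex, 9 rose and 5 fell in complex I, 0 and 2 in complex II, and 1 and 1 in complex III. Complex IV had 2 that rose and 5 that fell, and complex V had 5 of each. Cox7b (log2 change 1.91), Atp5g3 (1.76), Uqcrb (1.69) and Ndufc1 (1.66) still rose in that fit, and Sdha (-1.08), Cox5a (-1.14) and Atp5a1 (-0.91) fell. Cox4i1 (0.40, edgeR adjusted p 0.105) and Uqcrfs1 (0.61, edgeR adjusted p 0.181) did not pass in it. Nor did Ndufv3 (0.61, edgeR adjusted p 0.0635) and Ndufs8 (0.41, edgeR adjusted p 0.447). The summed counts of Atp5g1 rose by 0.44 there against 0.93 with all 56. Transcripts of Atp5g1 did not move alike in these 42 embryos, and their levels are given under Other observations. The sets were not tested against each other, and whether the 14 embryos match their labels is not known.

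**Figure D4:**
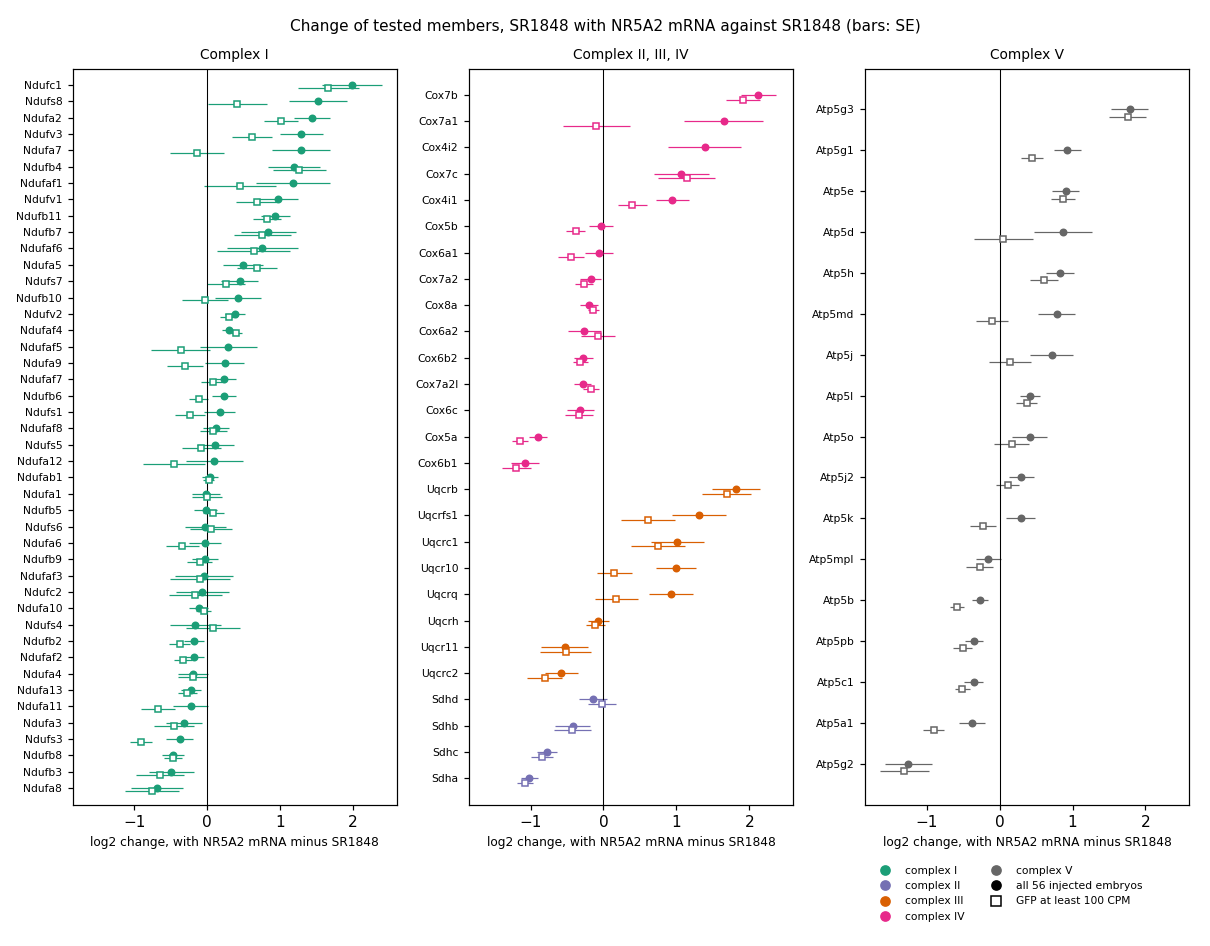
Fitted log2 change of tested members (x axis; bars are SE), injected embryos against SR1848, by complex, with 1 complex I member not drawn: filled circles use all 56 injected embryos and open squares the 42 with at least 100 CPM of GFP, where Cox4i2 was not tested. Cox7b, Atp5g3, Uqcrb, Ndufc1 and Ndufa2 are among the members right of 1 in both, and Sdha, Atp5g2 and Cox6b1 among those left of -1 in both.

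Set against DMSO, the injected embryos were lower for 59 members and higher for 9 (34.6% and 42.5% of all genes), with a median of -1.26 for the members and 0.32 for all genes. Maternal factors gave 2 higher and 85 lower (1918 and 9132 of all 15099 genes). With all libraries as labelled, 41 were lower and 7 higher (25.8% and 30.9% of all genes). The comparison shares its groups with the other 2, so the values are set side by side only. The log2 change of Ndufaf4 was 1.97 for SR1848 against DMSO and 2.27 for the injected embryos against DMSO, that of Cox6a2 3.57 and 3.31, and that of Sdha 1.85 and 0.84. For Uqcrfs1 the values were -4.95 and -3.64, and for Cox7b -1.88 and 0.24.

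The change from SR1848 to injected embryos was also set against itself in the 2 experiments. None of 79 members tested had a difference between experiments past the threshold (edgeR interaction test, lowest adjusted p 0.151), and 7 had an unadjusted p under 0.05. Among all genes 1.01% of 12220 passed.

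Mitochondrially encoded mRNAs did not fall in share with the nuclear members, and the ratio of the nuclear to the mitochondrial counts, which no scaling changes, was lower after SR1848 and lower still in the injected embryos. Their 13 genes took 4.30% to 8.29% of counts in the DMSO embryos (median 5.99%), 3.92% to 11.7% in the SR1848 embryos (median 7.43%) and 5.14% to 19.8% in the injected embryos (median 10.1%). For each 100 mitochondrial counts there were 5.75 to 16.6 nuclear member counts with DMSO (median 9.29), 2.50 to 10.5 with SR1848 (median 4.38) and 0.582 to 8.56 in the injected embryos (median 2.81). All 56 injected embryos lay below the DMSO median of this ratio, and 54 lay below the lowest DMSO embryo. Of the 13 mitochondrial mRNAs, 5 rose and none fell with SR1848, a share of rises close to the 37.7% of all genes, with the smallest adjusted p for mt-Co3 (log2 change 0.81, edgeR adjusted p 9.55e-07) and mt-Co1 (0.81), which encode the core of complex IV. That direction depended on scaling and libraries: none rose and 1 fell with relative log expression factors (median -0.21), all 13 fell with maternal factors (median -1.63), and none passed with all libraries as labelled (median -0.245). Over all genes, 7093 and 10654 of 15099 fell with those 2 sets of factors, and 5216 of 14499 with all libraries as labelled. In all, 12 rose in the injected embryos against SR1848, where 29.8% of all genes rose, led by mt-Cytb of complex III (0.86) and mt-Nd1 of complex I (0.89), and 13, 13 and 9 rose under those alternatives in the same order. Over all genes, 5263 and 7454 of 15099, and 4285 of 14499, rose under them. The highest mitochondrial share, 19.8%, was that of library 2 of experiment 1. Oligo-dT priming reads these transcripts through their poly(A) tails, whose lengths were not measured.

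**Figure D5:**
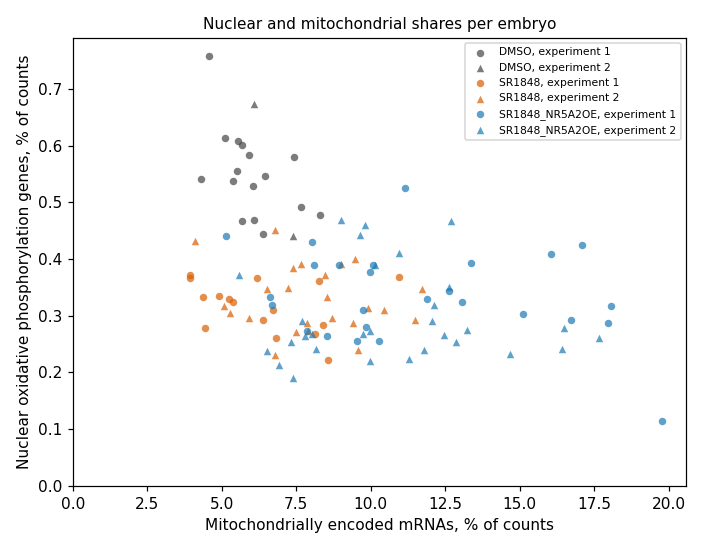
Share of counts from the 97 nuclear members (y axis, percent) against the share from the 13 mitochondrially encoded mRNAs (x axis, percent); each point is 1 embryo, colours are groups, circles experiment 1 and triangles experiment 2. DMSO embryos sit at 0.441% or more on the y axis, SR1848 embryos at 0.452% or less, and the injected embryos extend to 19.8% on the x axis.

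Genes that build or feed the complexes were read in the same fit. Of 38 tested assembly factors and electron carriers beyond the Ndufaf group, 23 fell and 8 rose with SR1848 (median -1.34), where 39.0% of all genes fell and 37.7% rose. Maternal factors gave 34 and 1 (median -3.26), where 10654 of all 15099 genes fell and 1151 rose. Cox10, which makes heme for complex IV, rose by 2.78 (SE 0.16), and Ecsit, a complex I assembly factor, fell by 2.48 (SE 0.20). In all 56 injected embryos against SR1848, 16 rose and 3 fell, where 29.8% of all genes rose and 14.8% fell. Cox14 (log2 change 2.33) and Cycs, cytochrome c (1.09), led in that fit. With the 42 embryos rich in GFP, 12 rose and 1 fell (24.4% and 18.1% of all genes). Of 16 tested regulators of mitochondrial gene expression and DNA, 13 fell and 1 rose with SR1848 (median -1.82): Tfb2m, a mitochondrial transcription factor, fell by 1.52, Gabpb2, a partner of GABPA, by 4.56, and Tfb1m rose by 1.55. Of them, 7 rose and 3 fell in the injected embryos against SR1848 (median 0.56), led by Polg2 (2.13) and Ssbp1 (1.94), both of the mitochondrial DNA replication machinery. With the 42 embryos rich in GFP the counts were 4 and 2 (median 0.22), and in experiment 2 alone 3 and 2. Over all genes they were 3588 and 2658 of 14711, and 4230 and 2184 of 18321.

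Fuel pathways had members in both directions. Of 19 genes of pyruvate entry and the citric acid cycle, 10 rose and 8 fell with SR1848 (median 0.50), with Dlst at 2.93. Of 18 genes of glycolysis, 9 rose and 4 fell (median 0.39), with Pgam1 at -2.83 and Tpi1 at 2.58. In the injected embryos against SR1848 the citric acid cycle list had 5 higher and 9 lower (Dld -1.01, Pdhb 1.58), and the glycolysis list 3 higher and 9 lower (Tpi1 -1.63, Aldoa -1.51). With relative log expression factors the SR1848 against DMSO counts were 6 higher and 9 lower for the citric acid cycle list and 7 and 6 for glycolysis, and with maternal factors 3 and 14, and 1 and 13. Over all 15099 genes those factors gave 4350 higher and 7093 lower, and 1151 and 10654. Maternal factors also turned the injected against SR1848 counts to 7 and 2, and 6 and 6, with 7454 and 753 over all genes. Genes are named here by the smallest adjusted p. These lists were read against the same background of all genes tested, and no difference between lists was tested.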

How the data were processed

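Single 2-cell embryos were sequenced, and the authors deposited estimated counts per transcript from kallisto 0.46.1, after bcl2fastq and Trim Galore 0.6.2 (names and versions per the submitters' processing notes, which also list R 3.5.1 and the builds mm10 and hg19 without their roles). The authors' deposited table of transcripts holds mean normalized signal, log2 fold changes and p-values from DESeq2 1.32.0; its design formula is not stated in the labels.

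Library columns were matched to groups by name. The names of the SR1848 and SR1848_NR5A2OE columns do not spell out the group and were matched through their numbers and experiments. Of the counts, 0.656% had no gene symbol and were left out. Counts were summed by symbol and rounded. A low library had a total under 1 in 5, or detected genes under 1 in 2, of the median. edgeR 4.0.16 (R 4.3.3) was run with filterByExpr, TMM factors and quasi-likelihood tests over the 3 groups with experiment as covariate. P-values were adjusted by Benjamini-Hochberg over all genes tested, with a threshold of 0.05. DESeq2 1.42.0, other scalings, filters and sample sets were alternatives, and the fit was tested on simulated data.

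Members and lists were chosen with earlier results of these data known. Members were named, per comparison and complex, as up to 3 called in each direction with the smallest adjusted p and a mean of at least 3 log2 CPM, with the most abundant of each complex, all Sdh genes and tissue-restricted isoforms; Atp5d, Atp5g2, Cox7c, Ndufaf1, Ndufb5, Ndufc1, Ndufs3, Ndufs7, Ndufs8, Uqcr11 and the regulator Tfb1m were added after their values were seen. No pair of libraries held identical values. Values of some single genes are not reported here.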

Additional observations from a re-analysis of the deposited data

How the results depend on the processing

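The number of members lower with SR1848 than with DMSO (65) was within 1.5 times under every alternative run except experiment 2 alone, with 37, where 2 DMSO embryos remained. In experiment 2 alone, 3839 of all 18321 genes were lower. The number of members higher (11) became 7 with relative log expression factors and 1 with maternal factors (4350 and 1151 of all 15099 genes). For injected against SR1848 embryos (29 higher, 11 lower), the number higher was 14 in experiment 2 alone, 17 with the 42 embryos rich in GFP and 45 with maternal factors. Over all genes these were 4230 of 18321, 3588 of 14711 and 7454 of 15099. The number of members lower was 6 with all libraries as labelled, in experiment 1 alone, with relative log expression factors and with DESeq2, 18 with the 42 embryos rich in GFP and 5 with maternal factors. Over all genes these were, in that order, 1878 of 14499, 1213 of 13480, 1621 and 1789 of 15099, 2658 of 14711 and 753 of 15099. For injected against DMSO embryos (9 higher, 59 lower), maternal factors gave 2 higher and experiment 2 alone 39 lower. Over all genes these were 1918 of 15099 and 3268 of 18321. Without SR1848_NR5A2OE replicate 2 of experiment 1, an alternative chosen after seeing the data, the counts were 11 and 65, 30 and 12, and 9 and 59. The causes were not tested.

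Replicate numbers were shared by libraries that did not deviate together: over 65 same-numbered pairs the median correlation was 0.009, with 4 pairs over 0.1, and 11 of 130 libraries matched their own number best. With the replicate number as a block, the members higher in injected than in SR1848 embryos numbered 16 (2964 of all 15099 genes).

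Among 1427 values of 45 named members under the alternatives, 1250 kept direction and call, 113 lost the call, 40 gained it and 24 reversed. With maternal factors the SR1848 against DMSO change was -0.55 for Cox6b2, -1.15 for Cox8a, -1.19 for Ndufa4, -0.98 for Ndufab1, -0.014 for Ndufaf4, -1.51 for Ndufb8, -0.18 for Sdha and -0.90 for Sdhc. Ndufb8 stood at -0.072 with relative log expression factors and at -0.073 with DESeq2. For injected against DMSO embryos, maternal factors gave -0.46 for Cox6b2, -1.02 for Cox8a, -1.03 for Ndufa4, -0.52 for Ndufab1 and -0.89 for Sdha, and experiment 2 alone gave -0.15 for Ndufa4. For injected against SR1848 embryos, maternal factors gave 0.24 for Atp5b, 0.057 for Atp5c1, 0.10 for Atp5pb and 0.053 for Cox7a2l. Experiment 1 alone gave 0.016 for Atp5b, all libraries as labelled 0.10 for Atp5pb, and the 42 embryos rich in GFP -0.11 for Atp5md and -0.10 for Cox7a1.

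Counts show shares of an embryo's polyadenylated RNA and not amounts per embryo, and 18 DMSO embryos, 2 of them in experiment 2, set the precision of both comparisons with DMSO. Members with medians of a few CPM in the SR1848 embryos rest on few reads there.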

Other observations

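Transcripts of 3 members were looked at after their values were seen, and kallisto's division of reads among transcripts of a gene is an estimate. Atp5g1-204, an annotated transcript of Atp5g1, was at 0 in all 18 DMSO embryos and at no more than 0.000522 CPM in the 40 SR1848 embryos. In the 42 injected embryos with at least 100 CPM of GFP it averaged 16.1 CPM ± 31.5 (SD), with 1 CPM or more in 18 and a highest value of 139 CPM. It was at 0 in all 14 injected embryos with less GFP. Among the libraries labelled DMSO 1 to 8 of experiment 2, which hold GFP, 3 of 8 had 1 CPM or more. Another annotated transcript of Atp5g1 had medians of 268 CPM with DMSO and 47.8 CPM with SR1848. Its median was 26.9 CPM in the 42 embryos rich in GFP and 186 CPM in the 14 with less GFP. Its mean in those 42 was 44.7 CPM ± 57.4 (SD), against 50.5 CPM ± 19.6 (SD) with SR1848. The part of Atp5g1-204 in the rise of the whole gene was not tested. In the authors' deposited table, Atp5g1-204 has a log2 fold change of 12.53 (SE 3.24, adjusted p 7.09e-64).

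Ndufab1-210, a transcript of the acyl carrier protein gene, had medians of 1.80 CPM with DMSO, 3.17 CPM with SR1848 and 17.8 CPM in the injected embryos, whereas the counts of the whole gene did not differ between the last 2 groups by the test (log2 change 0.03, edgeR adjusted p 0.847). The same deposited DESeq2 comparison of SR1848 and SR1848_NR5A2OE gives Ndufab1-210 a log2 fold change of 2.19 (SE 0.20, adjusted p 4.93e-26) and Sdha-201 one of -1.25 (SE 0.15, adjusted p 8.58e-16).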
